A study of Mus musculus with 43 samples.

Results

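The visceral endoderm uptake and transport genes are 10 genes, each chosen by its symbol: the endocytic adaptor Dab2, the uptake receptor genes Cubn, Amn and Lrp2, the carrier protein genes Apoe, Ttr and Afp, and the water and ion channel genes Aqp8, Clic6 and Kcnj13. They were selected on their values in control and knockout cells in the same table that is described here, so the difference between these 2 groups is a description of them and not a test. All 10 were found among 22462 genes of the authors' deposited table, and 8 of the 10 were among its 11362 tested genes. The study concerned MTF2, a Polycomb-like subunit of the histone methyltransferase complex PRC2. The cells were E14, a mouse embryonic stem cell line, grown in serum with LIF on gelatin. The gene table compares E14 cells labelled Control with E14 cells labelled MTF2 KO, with 3 RNA-seq libraries a group that the submitters describe as biological replicates. The labels name no other agent or allele in either group. The sources used here do not say how the knockout was made or from how many clones, and the ChIP-seq samples and the cells with MTF2 put back were not analysed here.

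The table holds 1 pooled FPKM value (fragments scaled by transcript length and by library size) per gene and group, so a value per library, an SD and the depth of a library are not known, and whether the groups overlap cannot be said for any gene. Each fold below is the ratio of 2 pooled values. "Called" means that the authors' deposited table gives a Cuffdiff q at or under 0.05. The targeted gene Mtf2 had 74.3 FPKM in control against 44.7 FPKM in knockout cells, with a q of 0.0496 in the authors' deposited table. Of 9 tested stem cell markers, 1 was called higher, Tfcp2l1 (34.0 to 60.8 FPKM), and 8 were not called, among them Pou5f1 (1312 and 1212 FPKM) and Nanog (105 and 90.0 FPKM). In bulk samples such as these, more cells of a type and more RNA per cell cannot be told apart, nor can fewer cells and less RNA per cell. Expressed genes of chromosome 14 had a median log2 ratio of 0.71, and none of the 10 genes lies there.

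The visceral endoderm is the outer epithelium of the early yolk sac and a main site of nutrient uptake before the placenta works. Its apical surface takes up maternal proteins, vitamins and lipids through the giant receptors megalin (Lrp2) and cubilin (Cubn). Cubilin has no membrane anchor of its own and reaches the surface bound to amnionless (Amn), and the adaptor Dab2 links such receptors to clathrin. The same epithelium secretes carriers such as alpha-fetoprotein (Afp), transthyretin (Ttr) and apolipoprotein E (Apoe), and moves water and ions across the yolk sac.

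All 10 genes had a higher pooled FPKM in knockout than in control cells. 4 were listed at 0 in control cells and 8 were under 1 FPKM there, whereas 8 stood at 5 FPKM or more in knockout cells. The median level went from 0.235 FPKM in control cells to 14.7 FPKM in knockout cells, which put it near the median of all tested genes (11.3 and 11.9 FPKM). Of the 8 that were tested, 5 had a call for higher, 0 for lower and 3 had none. Of all tested genes, 6.9% had a call for higher and 6.03% for lower. Because the genes were picked from this contrast, their count is not read against that share. On the scale log2((knockout FPKM + 0.5)/(control FPKM + 0.5)), the median of the 10 genes was 3.33, and it was also 3.33 without the 4 genes listed at 0. The median of all tested genes on that scale was -0.0035.

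**Figure D1:**
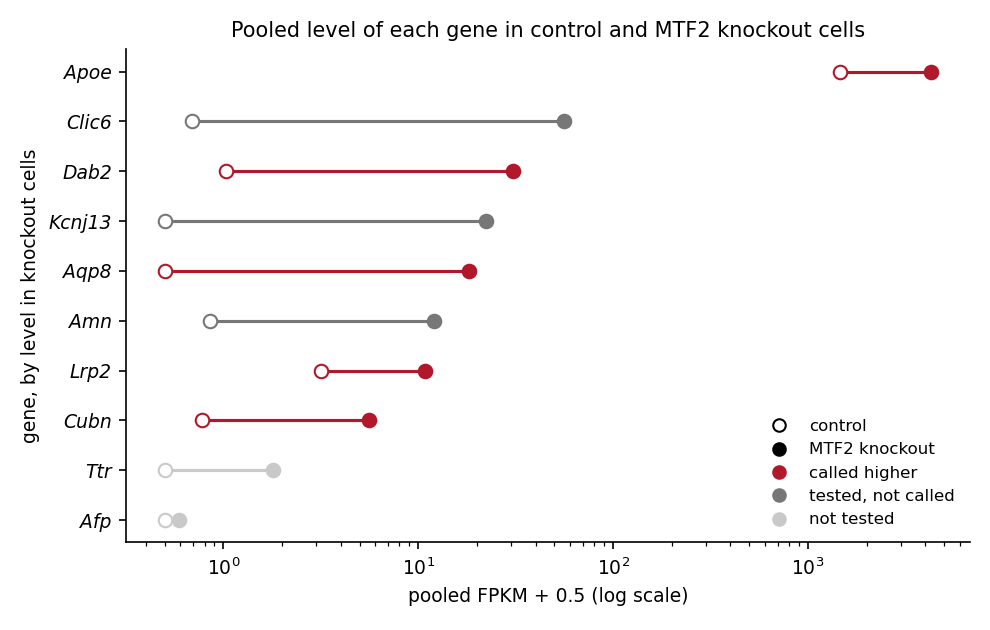
Pooled FPKM + 0.5 of each gene on a log axis, open circles for control and filled circles for MTF2 knockout cells (1 pooled value a group, no error known). Colour gives the call in the authors' deposited table. Apoe lies far to the right of the others in both groups, and Ttr and Afp stay at the low end in both.

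Dab2, the clathrin adaptor (chromosome 15, 6386748 to 6440705, mm10), had 0.526 FPKM in control against 30.3 FPKM in knockout cells. That is a 57.6-fold difference, with a q of 0.0012 in the authors' deposited table, which is the smallest q the table holds and is shared by 472 genes. In control cells Dab2 was at or above 2.68% of tested genes, and in knockout cells at or above 73.4% of them.

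Cubn, the ligand-binding chain of the receptor that cubilin forms with amnionless (chromosome 2, 13276338 to 13491813), had 0.279 FPKM in control against 5.10 FPKM in knockout cells. The difference was 18.3-fold with a q of 0.0012 in the authors' deposited table. Its partner Amn (chromosome 12, 111271111 to 111276426) went from 0.356 to 11.5 FPKM, a larger ratio of 32.4, yet its q in the authors' deposited table was 0.499 and it was not called. The level of Amn over that of Cubn, both per transcript length, was 1.28 in control and 2.26 in knockout cells. Both chains of the receptor were therefore under 1 FPKM in control cells and over 5 FPKM in knockout cells, although the authors' test separates the groups for Cubn and not for Amn.

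Lrp2, the megalin gene (chromosome 2, 69424340 to 69586065), was already present in control cells, at 2.67 FPKM, against 10.3 FPKM in knockout cells. This 3.85-fold difference had a q of 0.0012 in the authors' deposited table. Megalin exceeded cubilin 9.59-fold in control cells but 2.02-fold in knockout cells, with the larger fold for Cubn. Dab2 was at 0.197 of the Lrp2 level in control cells and at 2.95 times that level in knockout cells.

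Among the carriers, Apoe, the lipid carrier that binds lipoprotein receptors (chromosome 7, 19696109 to 19699188), was one of the most abundant transcripts in both groups. It had 1458 FPKM in control against 4298 FPKM in knockout cells, at or above 99.7% and 99.98% of tested genes. The fold of 2.95 was the smallest of the 6 genes with a control value above 0, but its gain of 2840 FPKM was the largest. Its q was 0.0012 in the authors' deposited table.

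Ttr, the carrier of thyroid hormone and of retinol-binding protein (chromosome 18, 20665250 to 20674324), was listed at 0 in control cells and had 1.29 FPKM in knockout cells. Afp, the fetal serum protein that is the classical mark of visceral endoderm (chromosome 5, 90490737 to 90508907), was listed at 0 and at 0.0945 FPKM. Neither was tested by the authors. The carriers therefore did not share 1 pattern: Apoe was high in both groups, Ttr was just detected in knockout cells and Afp stayed near 0 in both.

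The 3 channel genes were at or near 0 in control cells and well above the carriers Ttr and Afp in knockout cells. Aqp8, a channel for water (chromosome 7, 123462291 to 123468004), was listed at 0 in control cells and had 17.8 FPKM in knockout cells, with a q of 0.0012 in the authors' deposited table. Clic6, of the chloride intracellular channel family (chromosome 16, 92498134 to 92541243), went from 0.192 to 55.3 FPKM. That 288-fold difference was the largest of the 6 genes with a control value above 0, but it had a q of 0.333 in the authors' deposited table and was not called.

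Kcnj13, the inward rectifier potassium channel Kir7.1 (chromosome 1), was listed at 0 and at 21.6 FPKM and was not called either, with a q of 0.318 in the authors' deposited table. Its locus entry, 87327003 to 87450796, is shared with Gigyf2, inside which it lies on the other strand in RefSeq. Gigyf2 stood at 123 and 100.5 FPKM. The sources used here do not say whether the counting used strand, so reads of the 2 genes may not have been kept apart and the Kcnj13 value is uncertain.

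Ordered by level in knockout cells, Apoe came first, then Clic6, Dab2, Kcnj13, Aqp8, Amn, Lrp2, Cubn, Ttr and Afp. In control cells the order was Apoe, Lrp2, Dab2, Amn, Cubn and Clic6, with the other 4 listed at 0. Without values per library it cannot be said which neighbours in these orders differ beyond their spread. Clic6 went from the lowest value above 0 to the second place.

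Among the 8 tested genes of the set, calls did not follow the size of the ratio. Of the 4 genes with a log2 ratio of 4 or more (Dab2, Aqp8, Clic6 and Kcnj13), 2 were called. Among all tested genes at that ratio, 15 of 28 (53.6%) were called higher. The share was 44.6% at ratios from 1 to under 2, and 6.9% over all tested genes. Lrp2 and Apoe, with the smallest ratios of the tested genes, were both called. The deposited test statistic of Clic6 was 5.05, and of the 23 tested genes with a statistic that high or higher, 22 were called. Clic6 is the exception, with a p of 0.120 in the authors' deposited table.

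**Figure D2:**
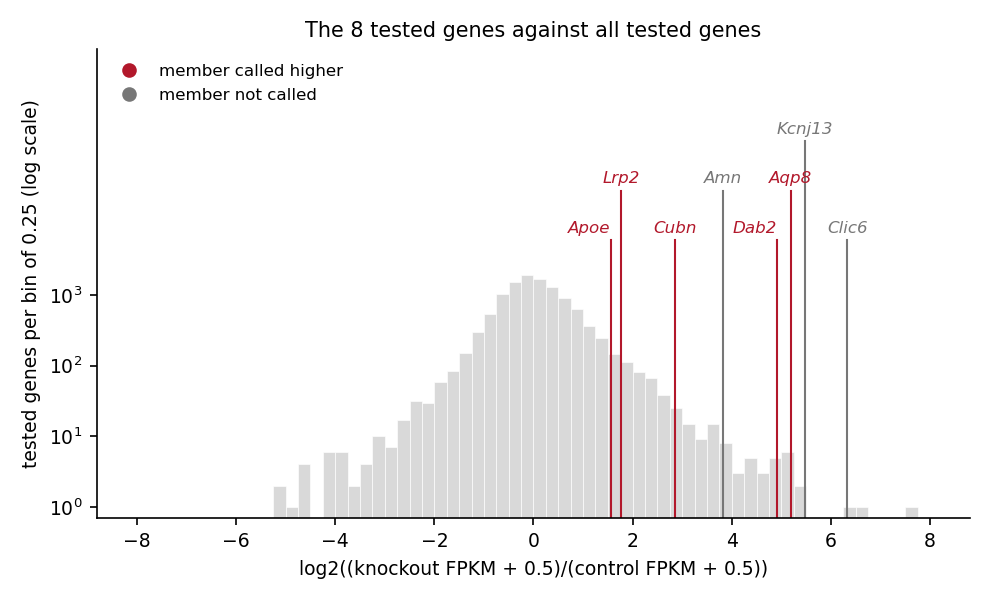
Number of tested genes (log axis) by log2 ratio of knockout over control at FPKM + 0.5, with a line for each of the 8 tested genes. Called genes (red) span the range from Apoe at 1.56 upward, and the genes not called (grey) include Clic6 at 6.33, the farthest to the right of the 8. Aqp8 and Kcnj13 were listed at 0 in control, so their place depends on the added 0.5. The place of Clic6, at 0.192 FPKM in control, depends on it too. With 0.1 added instead, Clic6 was at 7.57 and Kcnj13 at 7.76.

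The genes with the most similar pair of levels were taken among other tested genes by the distance in log2(FPKM + 0.5) over the 2 pooled groups. Nearest to Dab2 was the keratin gene Krt19 (0.554 and 35.0 FPKM, distance 0.21), and nearest to Amn were the endoderm transcription factor Sox7 (0.367 and 11.3 FPKM, distance 0.04) and Pitx1 (0.430 and 12.1 FPKM, distance 0.14). Plac8 (0.290 and 5.28 FPKM, distance 0.05) and Arhgef5 (0.276 and 4.41 FPKM, distance 0.19) were nearest to Cubn, and Sdcbp2 (2.54 and 10.04 FPKM, distance 0.07) to Lrp2. The transcription factor Sox17 (0.710 and 46.1 FPKM, distance 0.85) was the nearest to Clic6. Bnipl (listed at 0 and 13.2 FPKM) was the nearest to both Aqp8 and Kcnj13, at distances of 0.42 and 0.70. Apoe had 1 gene close to it, the metallothionein gene Mt1 (1309 and 3462 FPKM, distance 0.35). Of the genes named, Plac8, Sox17 and Bnipl were not called, and Krt19, Sox7, Pitx1, Arhgef5, Sdcbp2 and Mt1 were called higher. Next nearest were Hs3st1 to Dab2, Pfn2 to Lrp2, Serbp1 to Apoe and Adora1 to Kcnj13, all not called. Ankrd1 for Aqp8 and Krt19 for Clic6 were called higher. Each distance rests on 2 pooled values and describes how close both levels are.

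The study's title concerns CpG islands, so the CpG content of the promoters was described. RefSeq (GRCm38.p6) windows from 250 bases before to 50 bases after the start matched 8 of the 10 genes, and for genes with several windows the one nearest to an end of the table's locus was used. CpG observed over expected was 0.72 for Dab2, 0.65 for Lrp2, 0.52 for Amn, 0.40 for Apoe, 0.34 for Cubn, 0.32 for Kcnj13, 0.30 for Aqp8 and 0.25 for Afp. The median of all 32851 windows was 0.38 and that of the 8 genes 0.37. Dab2 and Lrp2 were the 2 at 0.6 or more, a level that 35.8% of all windows reach. The 4 windows below are the 2 richest in CpG and 2 of the 6 poorer ones, each 5′ to 3′ on the strand of the gene with every CG in capitals. Dab2 and Lrp2 are the CpG-rich ones, with 19 and 20 CG pairs, and Aqp8 and Kcnj13, both listed at 0 in control cells, hold 6 and 5. Of the poorer windows not printed, that of Afp, listed at 0 in control and near 0 in knockout cells, holds 3. Those of Cubn, Apoe and Amn, genes above 0 in control cells, hold 5, 10 and 15.

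Dab2, chr15:6386498-6386797, plus strand: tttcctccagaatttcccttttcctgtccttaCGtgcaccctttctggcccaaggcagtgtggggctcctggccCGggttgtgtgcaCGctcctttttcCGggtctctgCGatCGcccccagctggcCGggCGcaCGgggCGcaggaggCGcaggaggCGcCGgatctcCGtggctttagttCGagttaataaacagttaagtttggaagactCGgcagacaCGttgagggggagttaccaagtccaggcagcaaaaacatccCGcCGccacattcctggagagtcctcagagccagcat
Lrp2, chr2:69585980-69586279, minus strand: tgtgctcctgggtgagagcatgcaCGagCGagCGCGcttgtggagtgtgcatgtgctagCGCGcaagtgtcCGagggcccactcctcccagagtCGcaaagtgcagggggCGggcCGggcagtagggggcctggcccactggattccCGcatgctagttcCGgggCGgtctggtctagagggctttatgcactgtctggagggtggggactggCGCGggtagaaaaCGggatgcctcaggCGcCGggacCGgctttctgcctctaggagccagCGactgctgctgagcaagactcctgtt
Aqp8, chr7:123462044-123462343, plus strand: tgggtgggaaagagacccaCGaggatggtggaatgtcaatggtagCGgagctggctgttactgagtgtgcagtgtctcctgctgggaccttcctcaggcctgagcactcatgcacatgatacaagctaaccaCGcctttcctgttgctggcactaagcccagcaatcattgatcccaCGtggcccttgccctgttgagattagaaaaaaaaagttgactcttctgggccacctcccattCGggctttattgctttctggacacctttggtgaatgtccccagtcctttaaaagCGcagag
Kcnj13, chr1:87394680-87394979, minus strand: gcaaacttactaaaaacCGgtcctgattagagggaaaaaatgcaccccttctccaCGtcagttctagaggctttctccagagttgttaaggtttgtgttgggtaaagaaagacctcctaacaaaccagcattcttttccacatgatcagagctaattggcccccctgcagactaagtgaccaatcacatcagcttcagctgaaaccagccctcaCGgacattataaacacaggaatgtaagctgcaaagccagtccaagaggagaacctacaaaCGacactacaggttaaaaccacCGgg

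The CG pairs of Dab2 lie mostly in the middle of its window and those of Lrp2 are spread over the whole of it, while the channel windows hold long stretches without one.

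**Figure D3:**
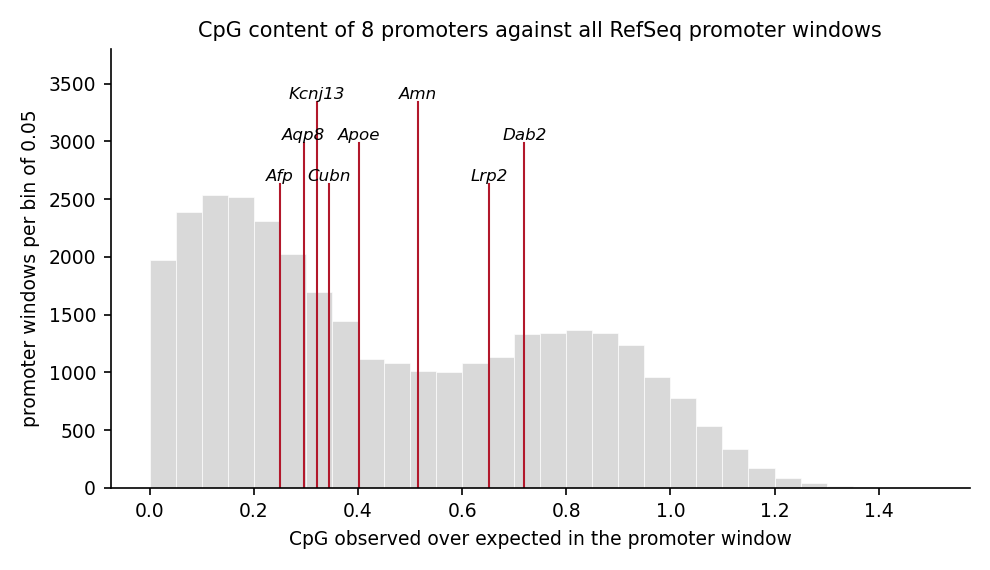
Number of RefSeq promoter windows by CpG observed over expected, in bins of 0.05, with a line for each of the 8 genes that have a window. Dab2 and Lrp2 lie in the right-hand, CpG-rich hump and the other 6 to the left of it.

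Next to each gene on its chromosome, the 5 expressed genes on either side (FPKM of 1 or more in either group) were examined. Of these 100 neighbours, 90 were tested, 4 were called higher (4.44% of those tested) and 4 lower. The median log2 ratio of the neighbours ran from -0.38 beside Apoe to 0.50 beside Ttr. For 8 of the 10 genes the ratio of the gene itself was above that of every neighbour, the exceptions being Afp and Lrp2. The 10 genes were picked on this contrast and the neighbours were not, so that count is only a description. Beside Lrp2, Galnt3 was listed at 0 and at 1.63 FPKM and was called higher, and Bbs5 was listed at 0 and at 1.61 FPKM and was not called. Beside Clic6, both adjacent expressed genes were called higher, Rcan1 (18.9 to 41.4 FPKM) and Runx1 (1.25 to 5.76 FPKM). In the authors' deposited table the q of Rcan1 was 0.00218 and that of Runx1 0.0488, close to the threshold.

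Apoe sits in a cluster of apolipoprotein genes. Its neighbour Apoc1 had 142 FPKM in control against 210 FPKM in knockout cells and was not called, and Apoc2 (1.13 and 0 FPKM) and Apoc4 (listed at 0 in both) were not tested. Apoe over Apoc1 thus went from 10.2 to 20.5. Tomm40, on the other side of Apoe, was called lower (285 to 190 FPKM), with a q of 0.0480 in the authors' deposited table, close to the threshold. Afp lies beside the related genes Alb and Afm, of which Alb stood at 0.0847 and 0.0990 FPKM and Afm was listed at 0 in both groups, so both were, like Afp, near 0.

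**Figure D4:**
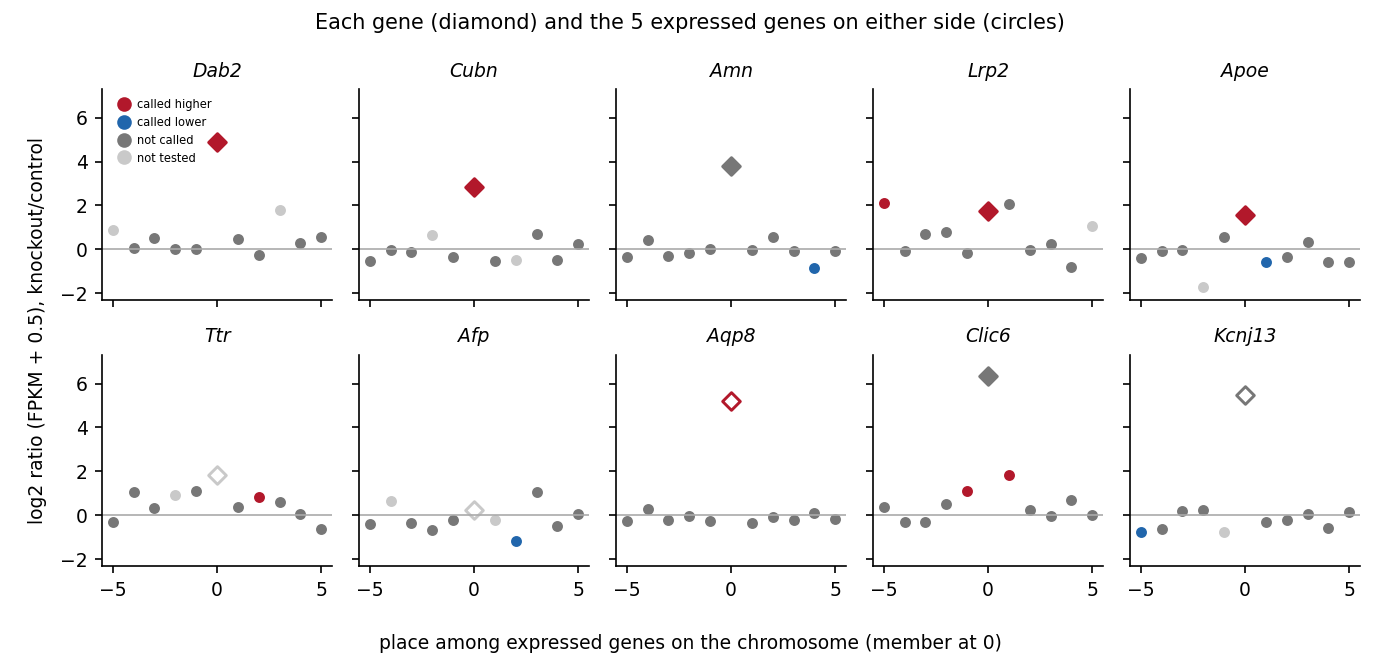
Log2 ratio of each gene (diamond, open where it was listed at 0 in control) and of the 5 expressed genes on either side of it (circles), coloured by call and placed by their order on the chromosome. The diamonds of Dab2, Amn, Aqp8, Clic6 and Kcnj13 stand at 3.81 or more, while the neighbours of those genes lie at 1.84 or less.

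Other genes of the uptake route were taken from a list of 36 receptors, chaperones, adaptors and coat proteins. Of 35 tested, 8 had a call for higher, 2 for lower and 25 none, which is 22.9% higher and 5.71% lower. The median log2 ratio of the tested genes was 0.08. Of the lipoprotein receptor family to which Lrp2 belongs, Vldlr rose from 1.94 to 8.81 FPKM. Lrp1, a large scavenger receptor of the same family, fell from 16.6 to 9.59 FPKM. Lrpap1, the chaperone that keeps megalin and its relatives free of ligand on the way to the surface, rose from 32.8 to 105 FPKM and stayed about 10.3 times above Lrp2 in knockout cells. Clcn5, the endosomal chloride exchanger that megalin and cubilin uptake depends on in kidney, rose from 2.02 to 7.04 FPKM.

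The other 5 of the 8, named after their values were seen, were the receptor gene Lrp8 (2.87 to 7.81 FPKM), the myosin gene Myo6 (4.23 to 10.2 FPKM), whose product binds Dab2, Igf2r (13 to 25.7 FPKM), and the clathrin chain genes Cltc (12.8 to 28.0 FPKM) and Cltb (157 to 286 FPKM). The AP-2 adaptor genes were not called, such as Ap2m1 at 46.1 and 33.3 FPKM. Dab1, the paralogue of Dab2, was not called either (6.51 and 8.91 FPKM). With a p computed from the deposited statistic, 1 of the 8 higher and 0 of the 2 lower calls were made.

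Other secreted carriers were mostly under 1 FPKM. Of 31 in the list, 22 were not tested and 19 were under 1 FPKM in both groups, Apob and Apoa1 among them. 9 were tested, of which 3 were called higher and 1 lower. Clu, the lipid-binding chaperone apolipoprotein J, rose from 3.40 to 126 FPKM and lies on chromosome 14, whose expressed genes were shifted upward as given above. Mttp, which loads lipid onto apolipoprotein B, rose from 0.888 to 6.87 FPKM while Apob itself stood at 0.0776 FPKM in control cells and was listed at 0 in knockout cells. Tcn2, the vitamin B12 carrier whose complex megalin takes up, rose from 10.5 to 23.4 FPKM, and Apod fell from 13.4 to 3.30 FPKM. Rbp4, the partner of transthyretin, was not called (2.72 and 6.16 FPKM).

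The channel genes were set beside their own families. Of the 10 other aquaporin genes, 2 were tested, 0 were called higher and 1 was called lower, Aqp3 (71.9 to 32.5 FPKM). Aqp8 held 0% of the summed FPKM of the 11 aquaporin genes in control and 33.4% in knockout cells, with Aqp3 the highest in both. Of 14 other inward rectifier genes, 3 were tested and 0 called, and Kcnj13 held 73.6% of the 15-gene sum of 29.4 FPKM in knockout cells. No other gene of that family passed 3.15 FPKM there. The share of Kcnj13 rests on its uncertain value, from a locus entry shared with Gigyf2. The chloride intracellular channel gene Clic1 rose from 92.9 to 216 FPKM and remained the highest of its family, Clic4 was not called (30.2 and 41.4 FPKM), and Clic6 went from 0.155% to 17.7% of the family sum. None of these shares has a test.

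The label of the set was checked against other marker genes. Of 18 further visceral endoderm markers, 13 were tested, of which 3 had a call for higher, 0 for lower and 10 none (23.1% higher), and the median log2 ratio of the 18 was 0.80. The 3 were Amot, a polarity protein (0.402 to 18.3 FPKM), Spink1, a protease inhibitor (listed at 0 and at 4.10 FPKM) and Mttp. Several markers of this list were at or near 0 in knockout cells: Apoa4 and Cer1 were listed at 0, Apob too, and Apoa1 stood at 0.883 FPKM. Hnf4a, the regulator of the mature epithelium, was at 2.25 and 1.08 FPKM and not called, and Ihh (0.626 and 8.19 FPKM) and S100g (listed at 0 and at 6.76 FPKM) were not called either. The summed level of the list was 148 FPKM in control cells against 284 FPKM in knockout cells, most of it Rhox5 (130 and 212 FPKM).

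Markers of parietal endoderm, the sister layer that lays down Reichert's membrane, were examined as well. Of 11 tested, 8 had a call for higher, 1 for lower and 2 none (72.7% higher), led by Pdgfra (1.22 to 14.5 FPKM), Pth1r (1.18 to 17.3 FPKM) and Lamb1 (13.9 to 128 FPKM), while Nid1 fell from 63.4 to 29.9 FPKM. The median log2 ratio of the 12 listed genes was 2.25, and their summed level was 464 and 1355 FPKM. Thbd, a defining marker, was not tested and stood at 0 and 0.259 FPKM. The 2 lists were not compared by a test, and the part of either cell type in the levels of the 10 genes was not tested. Of the 10 genes themselves, Afp was near 0 and Ttr low in knockout cells, and of the further visceral endoderm markers Apob and Apoa4 were listed at 0 there, so the genes are described here by their uptake and transport roles.

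Of 12 endoderm transcription factors, 10 were tested, of which 4 had a call for higher, 0 for lower and 6 none, and the median log2 ratio of the 12 was 1.76. Gata4 rose from 2.17 to 71.7 FPKM and Sox7 from 0.367 to 11.3 FPKM, and both lie on chromosome 14. Gata6, on another chromosome, rose from 1.24 to 12.9 FPKM. Sox17 was not called at 0.710 and 46.1 FPKM, and neither was Foxa2 at 0.904 and 9.92 FPKM. Foxa1 was not tested, at 0.207 and 0.255 FPKM.

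Several of the 10 genes are also known from other cells, whose markers were set beside them. Of 11 hepatocyte markers, from a cell that also makes Ttr and Apoe, 0 were tested and the summed level was 1.89 and 2.14 FPKM. The 7 kidney proximal tubule markers, from the tissue where megalin and cubilin are best known, were all under 1 FPKM in both groups (summed level 0.676 and 0.445 FPKM). Of 8 choroid plexus markers, where Ttr, Clic6 and Kcnj13 are abundant, 3 were tested and 0 called (summed level 81.8 and 55.9 FPKM), and the defining markers Kcne2 and Slc4a10 were listed at 0 in both groups. Of 7 retinal pigment epithelium markers 3 were tested and 0 called (summed level 33.1 and 52.9 FPKM), with Rpe65 listed at 0 in control cells and at 0.409 FPKM in knockout cells. Of 9 macrophage markers, 2 were tested and both were called higher, the lysosomal gene Cd68 (9.40 to 35.8 FPKM) and the receptor gene Mertk (0.208 to 2.49 FPKM). A stricter q of 0.01 left 1 of these 2 calls, and the normal p from the deposited statistic left 0. The defining macrophage markers Ptprc and C1qb were listed at 0 in both groups, and Csf1r stood at 0.0564 and 0.228 FPKM. The summed level of the 9 was 9.80 and 39.4 FPKM, and its part in the levels of the 10 genes was not tested.

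**Figure D5:**
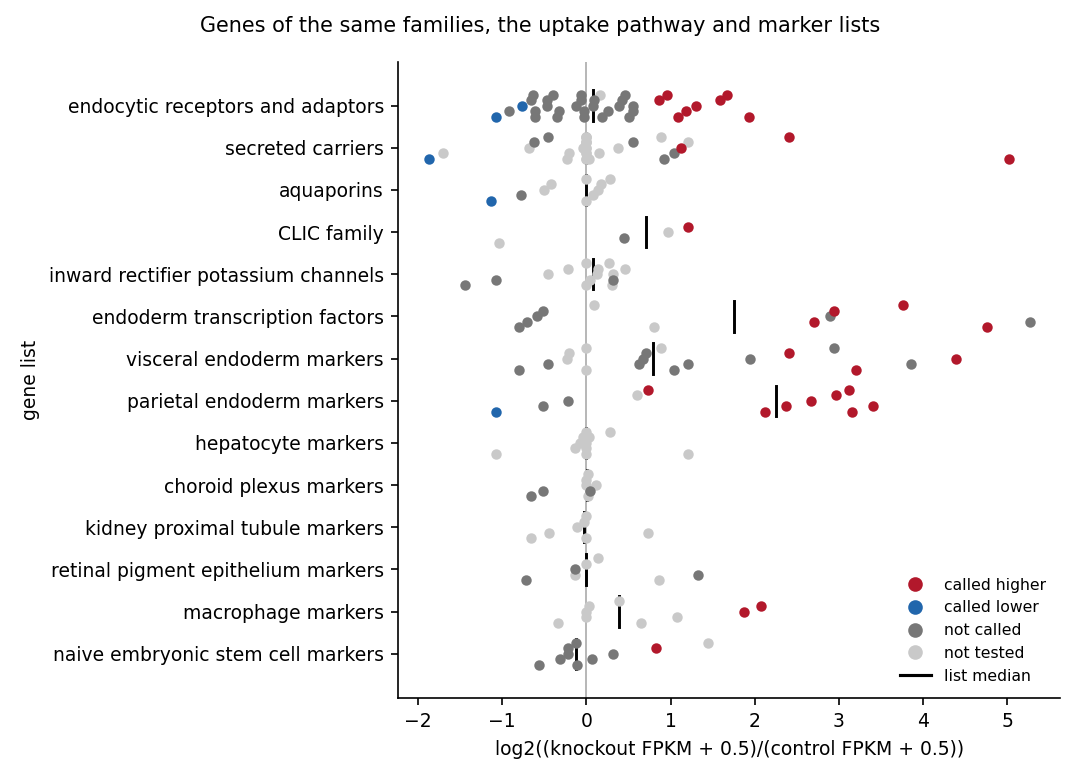
Log2 ratio of knockout over control at FPKM + 0.5 for every gene of 14 lists, coloured by call, with the median of each list as a black bar. Called genes gather on the right in the endoderm transcription factor and parietal endoderm lists, and hepatocyte and kidney lists hold 0 tested genes.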

How the data were processed

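Per the labels' protocols, messenger RNA was isolated on oligo-dT beads from Trizol total RNA of the 6 libraries. The FPKM values, 1 per gene and group pooled over 3 libraries, the log2 fold change, the test statistic (a score), the p-value and the q-value were made by the authors, per the file headers. The submitters' processing notes name TopHat2 2.1.0, Cuffdiff 2.2.1.3, Bowtie 1.0, deepTools, mm9 and mm10, with no role given. Of 21120 genes matched to RefSeq GRCm38.p6 by symbol, 99.99% lay on the same chromosome and 70.1% had both ends within 2 kb, so coordinates are given as mm10. The deposited q equals a Benjamini-Hochberg adjustment over the 11362 tested genes to within 5.2e-07. Library depth is unknown.

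The ratio used here is log2((knockout FPKM + 0.5)/(control FPKM + 0.5)), a scale on which low genes change by less than their fold. It was computed with pandas 2.3.3 in Python 3.11.15. Calls are the authors' (status OK, q at or under 0.05), and no further test of the difference between groups was run, as no value per library exists. No tested gene was under 1 FPKM in both groups, so a gene under 1 FPKM in control cells was tested only where it reached 1 FPKM in knockout cells. Of 601 tested genes under 1 FPKM in control, 14.1% were called higher. The 10 genes, the 14 lists and all rules were chosen with earlier results of these data known. Named list genes are those with the largest ratio, up to 3 called higher and 2 called lower, and others the text needs for a level at or near 0. Some listed genes are counted but not reported here by name. Further genes that were not called or not tested are named after their values were seen. The script for the adjustment and the calls was tested on simulated data. A search of the promoter windows for 2 motifs is not reported here. Alternatives were a q of 0.01, recomputed adjustment, a normal p from the statistic, a 2-fold minimum, an FPKM of 1, pseudocounts of 0.1 and 1, centring, equal summed FPKM, tested genes alone, genes not listed at 0, and 10 neighbours.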

Additional observations from a re-analysis of the deposited data

How the results depend on the processing

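No paired analysis was possible because the table holds 1 pooled value a group, and for the same reason no replicate could be left out. The number of the 10 genes called higher stayed at 5 at a q of 0.01, with the recomputed adjustment, with a 2-fold minimum and with an FPKM of 1 or more. None of these settings could have changed it. All 5 had the smallest q, 0.0012, and the recomputed adjustment matches the deposited one. The smallest fold among them was 2.95, for Apoe, and no tested gene was under 1 FPKM in both groups. With a normal p from the deposited Cuffdiff statistic the number called higher was 3. Dab2 and Cubn kept their calls, Clic6 gained one and Lrp2 and Apoe lost theirs. The Benjamini-Hochberg adjusted values from the Cuffdiff statistic were 0.000176 for Clic6, 0.0865 for Lrp2 and 0.111 for Apoe. Aqp8 and Kcnj13 have no number as statistic there, so neither could be called with that p. That p gave 95 higher and 29 lower calls in all, and for the list of 36 uptake genes 1 higher and 0 lower. Higher calls in other lists went from 8 to 5 for parietal endoderm, from 3 to 1 for visceral endoderm and for secreted carriers, from 2 to 0 for macrophages and from 1 to 0 for the CLIC family and for stem cell markers. They stayed at 4 for endoderm transcription factors. Of the visceral endoderm genes called higher, Spink1 has no number as statistic, so that p could not keep its call. The single lower calls among secreted carriers, aquaporins and parietal endoderm markers went to 0. At a q of 0.01 the macrophage list kept 1 higher call and the secreted carriers 0 lower. Higher calls at that q went from 8 to 6 for parietal endoderm and from 8 to 7 for the uptake genes. For visceral endoderm and for secreted carriers they went from 3 to 2. The counts of the other lists did not change. The median log2 ratio of the 10 genes was 4.23 with a pseudocount of 0.1, 2.73 with 1, 3.47 with equal summed FPKM and 4.36 over the 8 tested genes. Equal sums moved the median of all tested genes by 0.14, to 0.14, and turned the sign of 0 called list genes and of 10 entries not called or not tested, Pou5f1 among them. All 40 recomputed ratios of single genes under the pseudocounts, centring and equal sums kept their direction. That outcome was fixed in advance. A pseudocount cannot turn a sign, and centring and equal sums raised ratios that were already above 0. The 10 neighbour medians also kept their direction with 10 genes on either side. Genes near 0 are limited by an unknown depth.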

Other observations

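4 genes were higher with a p computed from the deposited statistic but not called in the authors' deposited table, against 91 that were higher with both. Besides Clic6 they were Sox17 (0.710 and 46.1 FPKM, q = 0.292), the retinoic acid hydroxylase gene Cyp26a1 (0.329 and 166 FPKM, q = 0.476) and the adenosine receptor gene Adora1 (0.276 and 16.9 FPKM, q = 0.493), with each q from the authors' deposited table. All 4 were under 1 FPKM in control cells. The cause was not tested.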
